A study of Mus musculus with 4 samples.

Results

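The genes described here are 9 genes known as targets of Wnt signalling in other tissues: Sox4, Apcdd1, Ccnd1, Myc, Tcf7, Rnf43, Znrf3, Cd44 and Tcf7l2. They were chosen by symbol from genes that the tables list, which Axin2 and Lef1, other known targets, are not, and with earlier results of these data known. They make up 9 of the 13685 genes listed in any of the 3 deposited tables. Each table compares 2 libraries and lists a gene only where 1 of the 2 reached about 1 CPM, the unit of the tables: reads of a gene scaled to a common library size. Of the 9 genes, 7 stood in all 3 tables, as did 12507 of all genes. Apcdd1 was listed only in the table of Wnt2 against control medium, and Tcf7 only in the 2 tables that hold control medium.

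The cells were mouse dendritic cells, the cells that present antigen to T cells, grown from the bone marrow of C57BL/6 mice aged 4 weeks. All cultures were kept for 7 days with 2 cytokines, IL-4 (10 ng/ml) and GM-CSF (10 ng/ml). The groups were control medium (no further treatment), Wnt2 (a secreted ligand), CAF.CM (CAF culture medium, where CAF usually stands for cancer-associated fibroblast), and CAF.CM + Wnt2 antibody, in which the medium had been incubated with an antibody to Wnt2 before use. The labels give no dose of Wnt2, length of treatment or source of the CAFs. The series text speaks of triplicates, but each group has 1 column of values, called a library here, and whether it pools several cultures is not given. The differences below therefore stand without replicates, and no p-value was computed for them.

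In canonical Wnt signalling, a Wnt ligand binds a Frizzled receptor and an LRP co-receptor at the cell surface, which stops the destruction of beta-catenin in the cytoplasm. Beta-catenin then enters the nucleus and joins the DNA-binding factors of the TCF and LEF family, which include Tcf7 and Tcf7l2, at their target genes. Some targets act back on the pathway: Apcdd1 is a membrane protein that inhibits Wnt signalling, and Rnf43 and Znrf3 are related ubiquitin ligases that remove Frizzled from the cell surface. Others act on growth and identity: Ccnd1 encodes cyclin D1, which drives cells through G1, Myc a transcription factor of growth and metabolism, Sox4 a transcription factor of progenitor cells, and Cd44 a surface receptor for hyaluronan. In dendritic cells, beta-catenin is known for its part in tolerance, the dampening of T cell responses.

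Reads in listed genes numbered 143071376 in control medium and 154399767 in Wnt2, but 25225220 in CAF.CM and 22791494 in its antibody-treated counterpart. A single read was thus worth 0.00706 and 0.00651 CPM in the first 2 libraries, and 0.0384 and 0.0431 CPM in the others, where values of low genes are less precise. Shares of reads were taken over the 12507 genes in all tables. Protein-coding genes held 81.2% of these reads (control medium), 80.1% (Wnt2), 75.8% (CAF.CM) and 72.4% (antibody), and the nuclear RNA Malat1 held 1.38%, 1.76%, 2.86% and 3.86%. Of 13 markers of conventional dendritic cells, 12 were listed, and the sum over the 10 in all tables came to 2766 CPM (control medium), 726 CPM (Wnt2), 1367 CPM (CAF.CM) and 1268 CPM (antibody). Itgax, which encodes the dendritic cell integrin CD11c and was picked after its values were seen, stood at 888, 223, 47.7 and 30.3 CPM, so from Wnt2 to CAF.CM it was lower while the sum was higher. All 14 markers of macrophages and monocytes were listed, with sums from 2282 CPM (antibody) to 3879 CPM (control medium). Against control medium, 6 of the 14 were at least 2-fold lower with Wnt2 (median log2 ratio -0.80), 8 with CAF.CM (-1.64) and 9 with the antibody (-2.74). In the same order, 1, 2 and 2 of the 14 were at least 2-fold higher. Of all genes, 2.93%, 8.69% and 12.6% were at least 2-fold lower, and 2.87%, 6.68% and 8.1% higher. Of 11 neutrophil markers, 3 were listed and Ly6g, Mpo and Elane stood in no table, and the 2 in all tables summed to 548 CPM in control medium, 1501 CPM in Wnt2, 144 CPM in CAF.CM and 102 CPM in the antibody library, nearly all of it Mmp8. Of 7 plasmacytoid dendritic cell markers, 4 were listed and Siglech stood in no table, and their sum was 108, 123, 359 and 321 CPM in the same order. Of 11 fibroblast markers, 7 were listed and Col1a1, Lum, Pdgfra and Fap stood in no table, while the sum of the 4 in all tables was 9.90, 10.5, 38.6 and 65.5 CPM. The part of these differences in the values below was not tested. In such bulk samples, fewer cells of a type and less RNA per cell cannot be told apart.

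Wnt2 against control medium asks which genes the ligand acts on. Of the 9 target genes, 2 were at least 2-fold higher with Wnt2 (Sox4 and Apcdd1) and 2 at least 2-fold lower (Ccnd1 and Myc). Apcdd1 reached 1 CPM only in the Wnt2 library, so it had to be higher there to be listed at all. Of all 13120 genes in that table, 2.87% were at least 2-fold higher and 2.93% at least 2-fold lower. Their median log2 ratio was 0.16, beside -0.02 over all genes of the table, so the set had no common direction. An adjusted p below 0.05 in the authors' deposited table was given to 5 of the 9 (Sox4, Apcdd1, Ccnd1, Myc and Rnf43), as did 15.4% of all genes. Log2 ratios are log2 CPM differences with a prior count of 2, and their 95% exact binomial intervals cover counting error only.

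**Figure D1:**
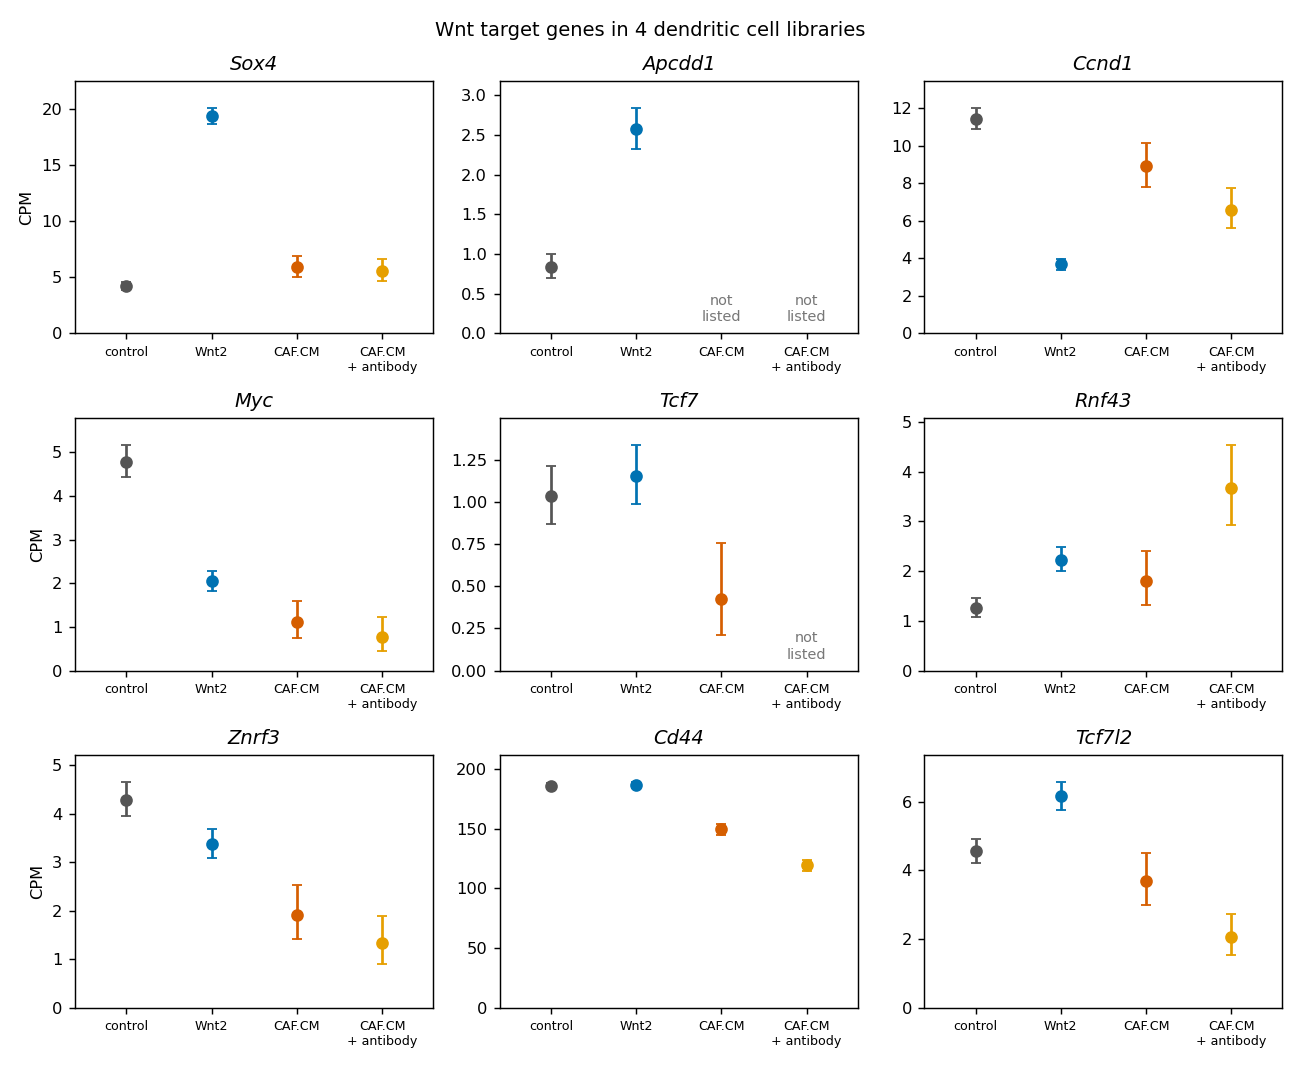
Level of each Wnt target gene in the 4 libraries, in CPM on a linear axis from 0. Points are single libraries and bars are 95% exact Poisson intervals of the read count, counting error only. Sox4 was highest with Wnt2 (19.4 CPM) and Ccnd1 lowest with Wnt2 (3.67 CPM), Myc and Znrf3 were highest in control medium, and Rnf43 was highest in the antibody library (3.66 CPM).

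Sox4 had the largest ratio of the 9 genes with Wnt2. Its level was 4.25 CPM (601 reads) in control medium, 19.4 CPM (2978 reads) in Wnt2, 5.91 CPM (154 reads) in CAF.CM and 5.60 CPM (130 reads) in CAF.CM + Wnt2 antibody. The Wnt2 library stood apart from the other 3, whose levels lay close together. Sox4 was 4.55-fold higher with Wnt2 than in control medium, a log2 ratio of 2.19 (2.06 to 2.32), above that of 99.5% of listed genes. The authors' deposited table gives it an adjusted p of 6.03e-21 in that comparison. With CAF.CM the log2 ratio to control medium was 0.48 (0.21 to 0.74), which lies below 2-fold, and the adjusted p in the authors' deposited table was 0.121.

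Sox4 also belongs to a list of 11 markers of haematopoietic progenitors, of which 8 were listed. The other 6 of them in all tables summed to 101 CPM (control medium), 68.6 CPM (Wnt2), 46.3 CPM (CAF.CM) and 31.8 CPM (antibody), so their sum was highest where Sox4 was lowest. With Wnt2, 2 of the 8 were at least 2-fold higher, Sox4 and Erg, and 1 lower, Cd48, beside 2.87% and 2.93% of all genes. The median of the 8 was -0.02. In that comparison Erg reached 1 CPM only with Wnt2, so it had to be higher there to be listed. Erg, a transcription factor of blood stem cells, was at 0.749, 2.11, 2.15 and 1.64 CPM, the surface protein Cd48 at 49.8, 18.1, 16.1 and 11.5 CPM, and the progenitor marker Cd34 at 13.2, 6.65, 9.29 and 5.43 CPM. These 3 were picked after their values were seen, and their part in the Sox4 values was not tested. Sox12, another SoxC factor, was at 1.13 CPM in control medium and 1.32 CPM in Wnt2, a log2 ratio of 0.22 (-0.09 to 0.53), and Sox11, the third of that family, was in no table.

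Sox4 (ENSMUSG00000076431) is a gene without introns at chr13:28948919-28953713 on the minus strand of GRCm38. A long noncoding gene, Gm26735, lies on the opposite strand, and 2616 of its 2649 exon bases face the Sox4 3′ untranslated region. Its level was 0.954, 4.63, 0.614 and 1.47 CPM in control medium, Wnt2, CAF.CM and the antibody library, with a log2 ratio of 2.26 (2.01 to 2.55) for Wnt2 against control medium. Gm26735 was picked after its values were seen. The library kit keeps strand, but whether the counting used it is not given, so reads of the 2 genes cannot be told apart. Reads given to Gm26735 came to 22.5%, 23.9%, 10.4% and 26.2% of those given to Sox4. Read in the sense direction alone, 0.546% of the 31-base words of the Sox4 transcript occur in the longest transcript of another gene, chiefly Sox11. Reverse words were not searched, so this share leaves out the overlap with Gm26735.

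The stretch before the Sox4 transcript is shown because Sox4 had the largest ratio with Wnt2. It is from RefSeq, GRCm38.p6, chr13:28953714-28953949, minus strand, printed 5′ to 3′ and ending at the base before the annotated transcript. Capitals mark the word CCAAT or its reverse ATTGG, a word chosen after the sequence was seen.
Sox4: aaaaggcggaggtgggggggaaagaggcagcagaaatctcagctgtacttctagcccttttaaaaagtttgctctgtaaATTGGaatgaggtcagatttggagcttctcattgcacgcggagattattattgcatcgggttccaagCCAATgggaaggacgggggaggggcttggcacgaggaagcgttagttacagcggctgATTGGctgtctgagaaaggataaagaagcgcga
The capitals lie 171, 104 and 47 bases before the RefSeq start. CCAAT on either strand occurs in 37.4% of all 32851 promoter windows of 300 bases (250 before to 50 after a start), so its presence is common. Neither CTTTGAT nor CTTTGTT, the words searched for TCF and LEF factors on both strands, was found in the Sox4 window, which says only that these letters are absent there. Windows were found for 5 of the 9 genes (Sox4, Cd44, Tcf7, Rnf43 and Tcf7l2), 8 windows in all. One of the words stood in 1 of the 8, beside 9.33% of all windows.

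Apcdd1 was at 0.841 CPM (119 reads) in control medium and 2.57 CPM (395 reads) in Wnt2. It was listed in neither table with CAF.CM, so its level there was not analysed here. The Wnt2 library was 3.03-fold higher, a log2 ratio of 1.60 (1.31 to 1.92), and the 2 counting intervals did not overlap. It was listed only through the Wnt2 library, where it was higher, so its place among listed genes is not given. The adjusted p in the authors' deposited table was 7.1e-09. Relative to transcript length Apcdd1 had the lowest level of the 9 genes in both libraries, at 0.0773 and 0.236 CPM per kb of its longest transcript.

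Rnf43 (chr11:87662722-87735539, plus strand) was at 1.25 CPM (177 reads) in control medium, 2.23 CPM (342 reads) with Wnt2, 1.80 CPM (47 reads) with CAF.CM and 3.66 CPM (85 reads) with CAF.CM + antibody. Control medium had the lowest value and the antibody library the highest, with no overlap of their counting intervals. With Wnt2 its log2 ratio to control medium was 0.83 (0.57 to 1.1), above that of 95.8% of listed genes but short of 2-fold, and the adjusted p in the authors' deposited table was 0.00649. With CAF.CM the ratio was 0.52 (0.03 to 1.00), with an adjusted p of 0.201 in the authors' deposited table.

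Znrf3 (chr11:5276324-5444847, minus strand), the relative of Rnf43, had another order. Its level was 4.29 CPM (608 reads) in control medium, 3.38 CPM (520 reads) with Wnt2, 1.92 CPM (50 reads) with CAF.CM and 1.34 CPM (31 reads) with CAF.CM + antibody. Control medium was highest, and the intervals of the 2 CAF.CM libraries lay wholly below it. The log2 ratio with Wnt2 was -0.34 (-0.52 to -0.17). With CAF.CM it was -1.15 (-1.61 to -0.74), 2.22-fold lower than control medium, with an adjusted p of 0.000337 in the authors' deposited table. Apcdd1, Rnf43 and Znrf3 belong to a list of 20 secreted and membrane Wnt antagonists, of which only 1 other was listed. That was Kremen1, a receptor for the Dkk antagonists, at 15.6 to 19.2 CPM over the 4 libraries.

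Neither of the DNA-binding factors among the 9 genes reached 2-fold with Wnt2. Tcf7 (chr11:52252371-52283014, minus strand), which encodes TCF1, was at 1.03 CPM (146 reads) in control medium, 1.15 CPM (177 reads) in Wnt2 and 0.422 CPM (11 reads) in CAF.CM. The control and Wnt2 intervals overlapped, with a log2 ratio of 0.16 (-0.16 to 0.49). CAF.CM was 2.36-fold lower than control medium, a log2 ratio of -1.24 (-2.32 to -0.41) that rests on 11 reads, and Tcf7 was in that table only through the control library, where it was higher. It had an adjusted p of 0.0177 in the authors' deposited table. Tcf7 is also known as a T cell factor. Of 18 markers of T and NK cells, 9 were listed, and Cd3d, Cd3e, Cd4, Zap70 and Bcl11b were in no table. With CAF.CM, 5 of the 9 were at least 2-fold lower than in control medium and 1 higher, beside 8.69% and 6.68% of all genes. Cd3g, a chain of the T cell receptor complex, was at 2.04, 1.23 and 0.691 CPM in control medium, Wnt2 and CAF.CM, and the receptor chain Trac at 1.43, 1.02 and 0.653 CPM. Like Tcf7, Cd3g and Trac reached 1 CPM in control medium but not in CAF.CM, so they had to be lower with CAF.CM to be listed. The 4 markers in all tables summed to 218, 145, 81.5 and 60.5 CPM, and without Il7r the other 3 to 4.66, 4.31, 9.14 and 6.25 CPM. Whether these bear on Tcf7 was not tested, and Cd3g and Trac were picked after their values were seen.

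Tcf7l2 (chr19:55741820-55933654, plus strand), which encodes TCF4, was at 4.56 CPM (645 reads) in control medium, 6.16 CPM (946 reads) with Wnt2, 3.69 CPM (96 reads) with CAF.CM and 2.07 CPM (48 reads) with CAF.CM + antibody. Wnt2 was highest and the antibody library lowest, and the intervals of control medium and CAF.CM overlapped. The log2 ratio was 0.43 (0.29 to 0.58) with Wnt2 and -0.30 (-0.63 to 0.01) with CAF.CM. In the authors' deposited table the adjusted p was 0.196 for Wnt2 and 0.395 for CAF.CM.

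The promoter window with a TCF and LEF word belonged to an internal start of Tcf7l2. It is shown because it was the only 1 of the 8 windows with such a word, from RefSeq, GRCm38.p6, chr19:55895071-55895320, plus strand, with CTTTGTT in capitals.
Tcf7l2 internal start: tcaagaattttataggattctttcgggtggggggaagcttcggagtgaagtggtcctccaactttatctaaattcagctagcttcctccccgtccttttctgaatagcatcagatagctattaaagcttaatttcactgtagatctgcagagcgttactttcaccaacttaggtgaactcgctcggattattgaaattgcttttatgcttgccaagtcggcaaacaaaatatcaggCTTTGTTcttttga
The word lies 14 bases before that start, and CTTTGTT on either strand occurs in 5.85% of all windows. The tables give 1 value for the whole gene, so use of this start was not measured.

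Ccnd1 (chr7:144929931-144939925, minus strand) was the lowest of the 9 genes in its ratio with Wnt2. Its level was 11.4 CPM (1617 reads) in control medium, 3.67 CPM (564 reads) with Wnt2, 8.91 CPM (232 reads) with CAF.CM and 6.59 CPM (153 reads) with CAF.CM + antibody. Wnt2 was lowest, and its interval overlapped no other. Ccnd1 was 3.10-fold lower with Wnt2, a log2 ratio of -1.63 (-1.78 to -1.50), with an adjusted p of 5.27e-12 in the authors' deposited table. With CAF.CM the ratio was -0.36 (-0.56 to -0.16), with an adjusted p of 0.235 in that authors' deposited table. LTO1 overlaps Ccnd1 on the opposite strand, was at 14.3, 13.5, 11.7 and 12.3 CPM, and was picked after its values were seen.

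The list of G1 cyclins, their kinases and inhibitors had 21 genes, all listed. With Wnt2, 0 were at least 2-fold higher and 2 lower, Ccnd1 and Cdkn1c, an inhibitor of G1 kinases with a log2 ratio of -1.87 (-2.29 to -1.52). The list's median was 0.19, and 2.87% and 2.93% of all genes passed. The other D cyclins differed from Ccnd1: Ccnd2 was at 18.8, 23.3, 59.1 and 42.1 CPM in control medium, Wnt2, CAF.CM and the antibody library. Ccnd3 was at 20.6, 25.6, 37.2 and 34.6 CPM. Cdk6, a kinase partner of the D cyclins, had a log2 ratio of -0.92 (-0.96 to -0.87) with Wnt2. Ccnd3 and Cdk6 were picked after their values were seen. With CAF.CM, 3 genes of the list were at least 2-fold higher (Ccnd2 at 1.65, Ccne2 at 1.47 and the inhibitor Cdkn1a at 1.08) and 2 lower (E2f2 at -1.28 and Cdkn1c at -1.15). Of all genes, 6.68% were at least 2-fold higher with CAF.CM and 8.69% lower.

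Myc (chr15:61985391-61990374, plus strand) had its highest level in control medium and its lowest in the antibody library. Its level was 4.79 CPM (678 reads) in control medium, 2.05 CPM (315 reads) with Wnt2, 1.11 CPM (29 reads) with CAF.CM and 0.776 CPM (18 reads) with CAF.CM + antibody. The intervals of the 2 CAF.CM libraries overlapped, and those of control medium and Wnt2 overlapped no other. Myc was 2.33-fold lower with Wnt2, a log2 ratio of -1.22 (-1.42 to -1.03), and the authors' deposited table gives an adjusted p of 2.03e-06. It was 4.23-fold lower with CAF.CM, a log2 ratio of -2.08 (-2.69 to -1.57), with 5.44e-10 as the adjusted p in the authors' deposited table. Both comparisons share the control library.

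All 35 genes of a list of Myc targets in ribosome biogenesis and nucleotide synthesis were listed, and 0 were at least 2-fold higher or lower with Wnt2, where 2.87% and 2.93% of all genes were. With CAF.CM the count was also 0, beside 6.68% and 8.69% of all genes. In the antibody library against control medium, where Myc was lowest, 1 of the 35 was higher (C1qbp, at 1.08) and 1 lower (Nme1, at -1.54), beside 8.1% and 12.6% of all genes. No test lies behind these counts, and the list's medians were -0.19, -0.11 and 0.02. Of 14 genes for Myc and its partners, 11 were listed. With Wnt2, Myc alone passed 2-fold, and with CAF.CM Myc and Mxd1 did. In the antibody library against control medium Mxd3, at 1.05 (0.58 to 1.55), was a further gene past it. C1qbp, Nme1 and Mxd3 were picked after their values were seen. Mxd1, which competes with Myc for its partner Max, was at 17.2, 28.6, 45.8 and 48.9 CPM. Its log2 ratio was 0.74 (0.66 to 0.81) with Wnt2 and 1.41 (1.31 to 1.51) with CAF.CM. Pvt1, a noncoding gene that starts 47.6 kb after Myc and was picked after its values were seen, had ratios of -0.85 and -0.52.

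Cd44 (chr2:102811141-102901665, minus strand) was the most abundant of the 9 genes. Its level was 186 CPM (26366 reads) in control medium, 187 CPM (28706 reads) with Wnt2, 149.7 CPM (3898 reads) with CAF.CM and 119 CPM (2772 reads) with CAF.CM + antibody. The first 2 libraries could not be told apart by counting error, with a log2 ratio of 0.00 (-0.02 to 0.03). With CAF.CM the ratio was -0.32 (-0.36 to -0.27), and the adjusted p in the authors' deposited table was 0.250. Of 21 symbols for Cd44 ligands and hyaluronan enzymes, 15 were listed, and 13 in the Wnt2 table. Tmem2 and Cemip2 among the 21 are the same gene, listed as Tmem2. With Wnt2, 4 of the 13 were at least 2-fold higher and 0 lower, with a list median of 0.16, beside 2.87% and 2.93% of all genes. Vcan, which encodes the hyaluronan-binding proteoglycan versican, was at 35.3, 560.3, 41.8 and 17.2 CPM, a log2 ratio of 3.99 (3.95 to 4.03) with Wnt2. Srgn, the proteoglycan serglycin, was at 244, 526, 545 and 564 CPM. The hyaluronidase Hyal1 had a ratio of 1.15 (1.00 to 1.31), and the hyaluronan synthase Has1 one of 2.28 (1.78 to 2.96) from 0.212 to 1.08 CPM, though it was listed only through the Wnt2 library. With CAF.CM, Spp1, the Cd44 ligand osteopontin, was at 86.7 CPM beside 659 CPM in control medium.

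**Figure D2:**
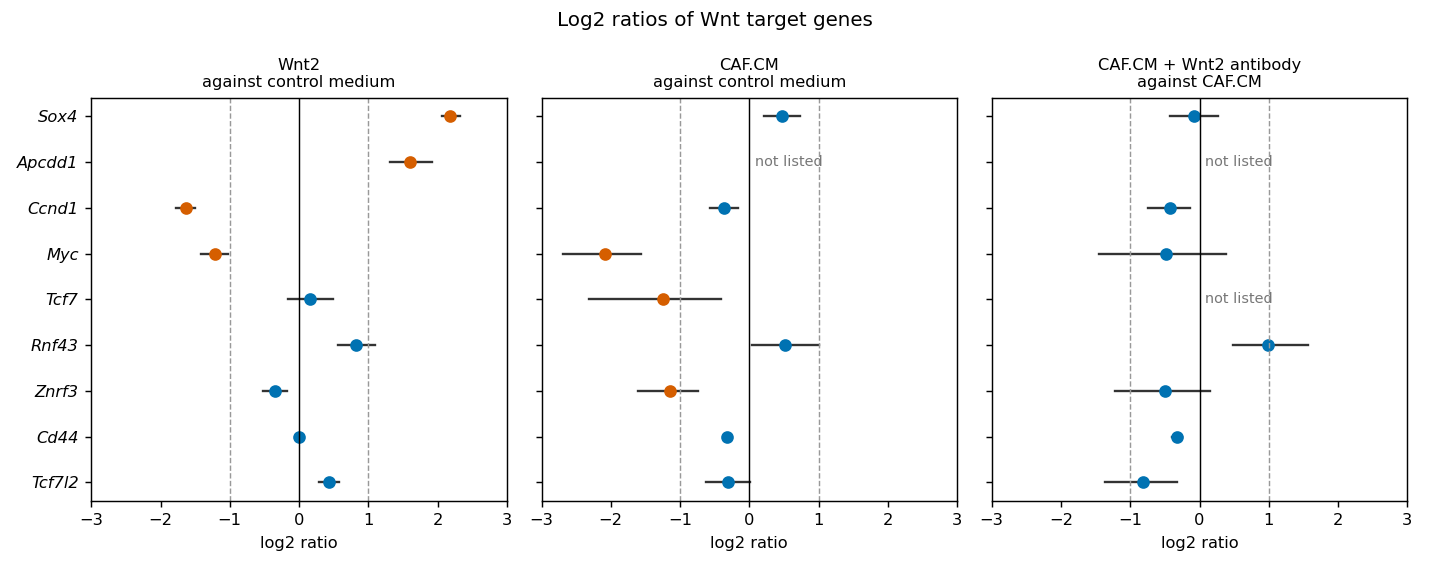
Log2 ratios of the 9 genes in the 3 deposited comparisons, with 95% exact binomial intervals (bars, counting error only) and dashed lines at 2-fold in either direction. Orange points are at least 2-fold and blue points are not. With Wnt2 the genes lay between -1.63 (Ccnd1) and 2.19 (Sox4), and with CAF.CM between -2.08 (Myc) and 0.52 (Rnf43).

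In CAF.CM against control medium, 0 of the 8 listed genes were at least 2-fold higher and 3 were at least 2-fold lower (Myc, Tcf7 and Znrf3), of which Tcf7 had to be lower to be listed, since it reached 1 CPM only in control medium. Of all 13329 genes in that table, 6.68% were at least 2-fold higher and 8.69% lower. The median of the 8 genes was -0.34, beside -0.04 over all genes. The same 3 genes had an adjusted p below 0.05 in the authors' deposited table, as did 32.6% of all genes. The 2 genes that were higher with Wnt2 were not among these: Sox4 lay below 2-fold and Apcdd1 was not in the table. Ccnd1, lower with Wnt2, was 2.42-fold higher in CAF.CM than in Wnt2, a log2 ratio of 1.27 (1.05 to 1.5), and Sox4 had a ratio of -1.71 (-1.96 to -1.48) between the same libraries. The authors deposited no table of those 2 libraries, and this comparison was chosen after the values were seen. Among all genes it put 4.31% at least 2-fold higher and 6.46% lower.

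CAF.CM + Wnt2 antibody against CAF.CM asks which differences seen with CAF.CM depend on Wnt2 in the medium. Of the 7 listed genes, 0 were at least 2-fold higher and 0 lower, while 1.02% of all 13072 genes in that table were at least 2-fold higher and 3.65% lower. The median was -0.43, beside -0.04 over all genes. Rnf43 was nearest to the threshold, 1.99-fold higher with a log2 ratio of 0.99 (0.49 to 1.57), from 47 and 85 reads. The log2 fold change in the authors' deposited table was 1.02, past 2-fold, with an adjusted p of 0.0324, the 1 value below 0.05 among the 7 genes. Of all genes there, 6.98% had an adjusted p below 0.05. Sox4 had a ratio of -0.08 (-0.43 to 0.27). Ccnd1 had a ratio of -0.43 (-0.74 to -0.13) and Tcf7l2 one of -0.81 (-1.37 to -0.32). Myc, at -0.48 (-1.46 to 0.38), and Znrf3, at -0.50 (-1.22 to 0.15), had intervals that held 0, so a difference was not detectable at this depth. Cd44 had a ratio of -0.33 (-0.40 to -0.25).

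The values of Ccnd1, Myc, Rnf43, Znrf3, Cd44 and Tcf7l2 in the antibody library lay farther from control medium than those in CAF.CM. That of Sox4 lay nearer, at a log2 ratio of 0.40 beside 0.48. Ratios to control medium were also wider over all listed genes. Their quartiles were -0.41 and 0.30 with CAF.CM, and -0.55 and 0.38 in the antibody library. The share of all genes that lay farther was not counted, so the shift is not shown to be particular to these genes. For Myc, Znrf3 and Sox4 the difference between the antibody library and CAF.CM was not beyond counting error. For the others the interval of antibody against CAF.CM did not hold 0. Against control medium the antibody library had Ccnd1 at -0.79 (-1.04 to -0.55) and Cd44 at -0.64 (-0.70 to -0.58). Against control medium the antibody library had 1 of 7 genes at least 2-fold higher (Rnf43) and 3 lower (Myc, Znrf3 and Tcf7l2), beside 8.1% and 12.6% of all genes. Myc was 6.02-fold lower there, a log2 ratio of -2.59 (-3.39 to -1.96), and Znrf3 3.18-fold lower, at -1.67 (-2.26 to -1.16). Rnf43 was 2.89-fold higher, at 1.53 (1.16 to 1.93), and Tcf7l2 2.19-fold lower, at -1.13 (-1.59 to -0.72). The antibody library also had the lowest share of protein-coding reads and the highest share of Malat1, as given above, and their part in these values was not tested.

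**Figure D3:**
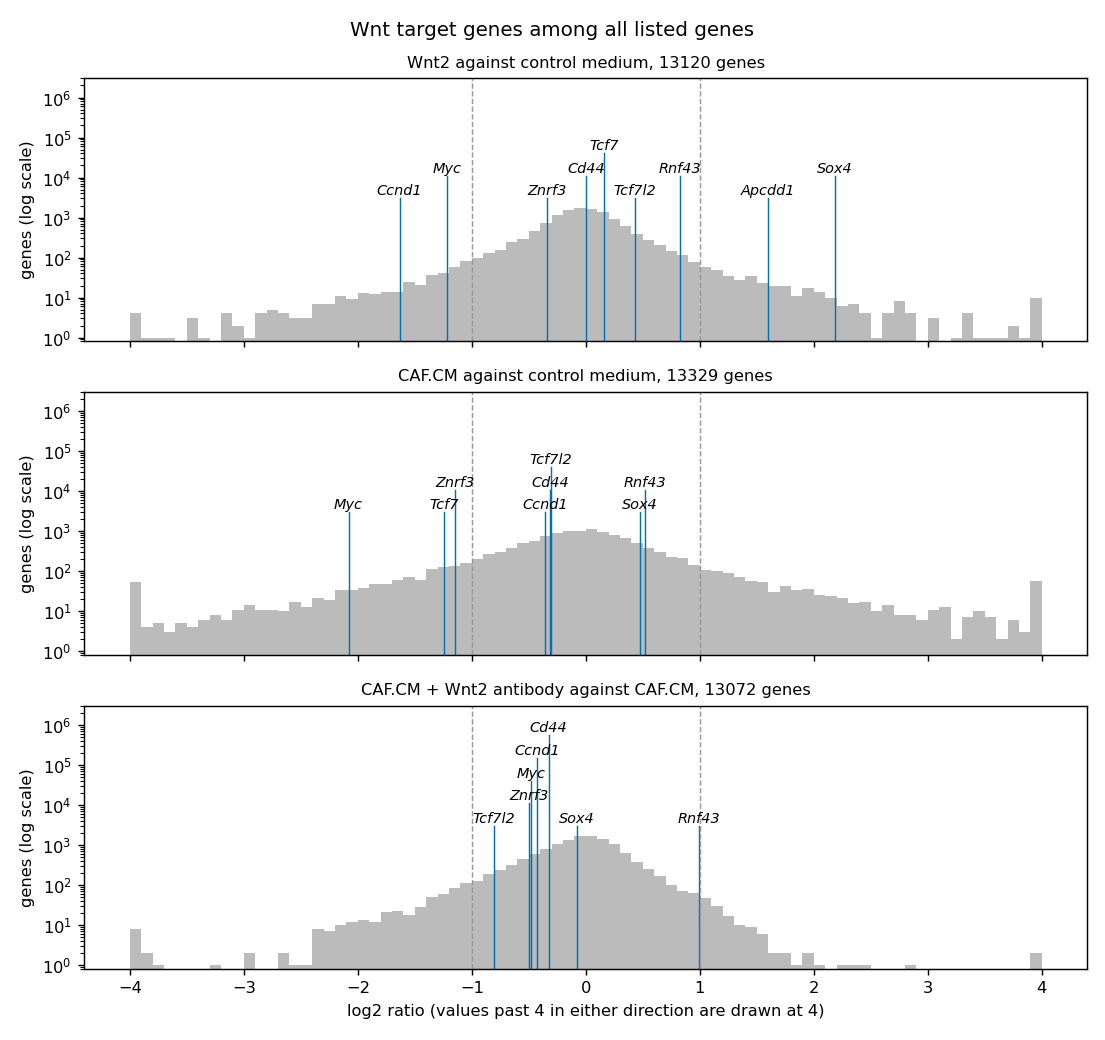
Distribution of log2 ratios over all listed genes in the 3 deposited comparisons (grey bars, gene number on a log axis, 0.1 per bin), with the Wnt target genes as blue lines whose height only spaces the names. Dashed lines mark 2-fold. With Wnt2, Sox4 and Apcdd1, the latter listed only through the Wnt2 library, lay in the upper tail and Ccnd1 and Myc in the lower, while with the antibody all 7 listed genes lay between -0.81 and 0.99.

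Levels of different genes were compared per kb of the longest transcript. In control medium the order was Cd44 (33.2 CPM per kb), Ccnd1 (3.05), Myc (2.05), Tcf7l2 (1.23), Sox4 (0.886), Znrf3 (0.681), Tcf7 (0.417), Rnf43 (0.290) and Apcdd1, and all neighbours in it differed beyond counting error. In Wnt2, Sox4 stood second at 4.04 CPM per kb, ahead of Tcf7l2 (1.66), Ccnd1 (0.982) and Myc (0.877), and the last 2 were not separated by counting error. In CAF.CM, Ccnd1 was second at 2.38 CPM per kb, followed by Sox4 (1.23) and Tcf7l2 (0.992), which were not separated. In the antibody library Ccnd1 (1.76 CPM per kb) and Sox4 (1.17) were followed by Rnf43 (0.850), a gene that stood ahead of Apcdd1 alone in control medium.

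The 9 genes did not share one pattern over the libraries. Among the 7 genes with a value in all 4 libraries, the span from the highest to the lowest was 6.02-fold for Myc (3.88 to 10.5), 4.55-fold for Sox4 (4.18 to 4.99), 3.18-fold for Znrf3, 3.10-fold for Ccnd1, 2.95-fold for Tcf7l2, 2.89-fold for Rnf43 and 1.56-fold for Cd44. Myc and Znrf3 had the same order of libraries, from control medium through Wnt2 and CAF.CM to the antibody library, with the last step not beyond counting error. Cd44 and Tcf7l2 shared another, from Wnt2 through control medium and CAF.CM to the antibody library. In it, counting error did not separate Wnt2 from control medium for Cd44, or control medium from CAF.CM for Tcf7l2. Likeness was measured as the Euclidean distance between log2 levels centred over the 4 libraries, a description of 4 points. By this measure the closest pairs were Cd44 with Tcf7l2 (0.65) and Znrf3 with Tcf7l2 (0.66), and the farthest was Myc with Rnf43 (2.95). Rnf43 and Znrf3 were 2.30 apart.

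Among 10324 genes in all tables with at least 5 CPM in 1 library, those nearest to Sox4 were B3galt2 (0.25), Gpat3 (0.33) and Oplah (0.37). B3galt2 was at 4.65, 24.9, 8.07 and 7.54 CPM. Nearest to Ccnd1 were Tlr1 (0.12), a receptor for bacterial lipopeptides, Batf3 (0.17), a transcription factor of dendritic cells, and Pcdh7 (0.24). Batf3 was at 14.1 CPM (control medium), 5.21 CPM (Wnt2), 12.4 CPM (CAF.CM) and 9.44 CPM (antibody). Nearest to Myc were Gpx3 (0.13), Lrfn4 (0.17) and Ldlrad3 (0.17). Hfe (0.03) was nearest to Znrf3, Hspa4l (0.18) to Rnf43, Inpp5b (0.02) to Cd44 and Gm15356 (0.04) to Tcf7l2.

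The other genes of the pathway had these values. Ctnnb1, which encodes beta-catenin, was at 347 CPM with control medium, 359.6 CPM with Wnt2, 267 CPM with CAF.CM and 286 CPM with CAF.CM + antibody. Its log2 ratio was 0.05 with Wnt2, -0.38 with CAF.CM and 0.10 with the antibody. Of 21 genes of the intracellular machinery, all listed, 0 were at least 2-fold higher or lower with Wnt2, where 2.87% and 2.93% of all genes were, and with CAF.CM 2 were lower, beside 8.69% of all genes: Ctnnbip1 (-1.18), an inhibitor of beta-catenin, and the kinase Csnk1e (-1.0). Of 22 symbols for the TCF and LEF complex, 18 were listed, 0 passed 2-fold with Wnt2, and with CAF.CM 2 were lower, Tcf7 and the co-repressor Tle2 (-1.03). Aes and Tle5 among the 22 are the same gene, listed as Aes. Of 19 receptors, 8 were listed and 0 passed 2-fold with Wnt2. Fzd1, a Frizzled receptor, was at 27.0 CPM (control medium), 48.7 CPM (Wnt2), 5.72 CPM (CAF.CM) and 3.58 CPM (antibody), and Fzd7 at 56.6, 87.1, 116.7 and 93.9 CPM, with log2 ratios for Wnt2 of 0.85 and 0.62.

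A list of 25 genes held the Wnt and R-spondin ligands together with Porcn and Wls, which are not ligands. Of the 25, 5 were listed: Wnt2b, Wnt6, Wnt11, Porcn and Wls. Wnt2 itself and the R-spondins were in no table. Wnt6 was at 2.67, 2.55, 15.1 and 12.8 CPM in control medium, Wnt2, CAF.CM and the antibody library, a log2 ratio of 2.48 (2.29 to 2.70) with CAF.CM. Wnt11, at 1.08 CPM in CAF.CM and 0.474 CPM with the antibody, had a ratio of -1.06 (-2.34 to -0.13) between these, and was picked after its values were seen. Between these libraries it reached 1 CPM only in CAF.CM, so it had to be lower with the antibody to be listed. That ratio rests on 39 reads over both libraries.

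Of 45 symbols of other Wnt target genes, 13 were listed. The other 32, with the feedback genes Axin2, Nkd1 and Notum and with Lef1, Lgr5 and Sp5, were in no table. Among the 32, Wisp1, Wisp2 and Cyr61 stand also under their other symbols, Ccn4, Ccn5 and Ccn1, so the genes are fewer than the symbols. With Wnt2, 1 of the 13 (median 0.10) was at least 2-fold higher and 0 lower, beside 2.87% and 2.93% of all genes. That gene was Fosl1, an AP-1 factor that reached 1 CPM in every library but control medium, at 0.678, 2.4, 4.26 and 5.56 CPM, with a log2 ratio of 1.80 (1.49 to 2.16) with Wnt2 and 2.61 (2.24 to 3.06) with CAF.CM. With CAF.CM, 4 of the 13 (median -0.01) were at least 2-fold higher and 2 lower, beside 6.68% and 8.69% of all genes. The higher ones were Fosl1, Vegfa, Fzd7 and Birc5, the last picked after its values were seen. The lower ones were Bambi (-2.16), a decoy receptor for TGF-beta family ligands, and Plaur (-1.94), the urokinase receptor. Between these 2 libraries Fosl1 and Birc5 reached 1 CPM only in CAF.CM, and Bambi only in control medium. Their directions were therefore fixed by the listing, as was that of Fosl1 with Wnt2. Vegfa, a growth factor of blood vessels, was at 1134, 2192, 2655 and 2957 CPM. With the antibody against CAF.CM, 0 of 12 passed 2-fold, beside 1.02% of all genes higher and 3.65% lower.

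**Figure D4:**
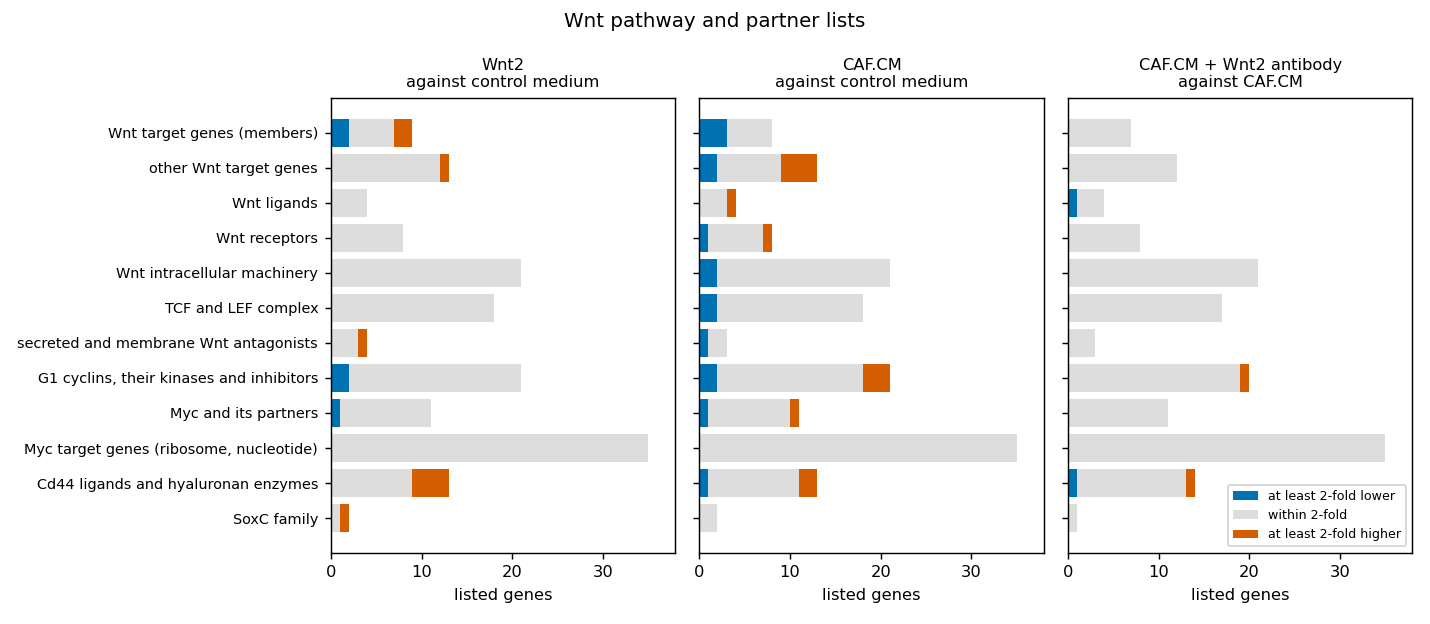
Number of listed genes of each pathway or partner list that were at least 2-fold lower (blue), within 2-fold (grey) or at least 2-fold higher (orange) in the 3 deposited comparisons; the target genes described here are the top bar. The 35 Myc target genes were all within 2-fold in the 3 comparisons, and the intracellular machinery was all within 2-fold with Wnt2.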

How the data were processed

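RNA-seq of mouse dendritic cells was analysed in 4 groups with 1 library each. Ribosomal RNA was depleted and stranded libraries were made from 1 ug of total RNA, per the labels' protocols. The submitters' processing notes name STAR 2.4.2a, RSEM 1.2.29, edgeR, GRCm38.p5 and mm10, without settings or use of strand. Values per library are normalized CPM, per the file headers. The deposited log2 mean CPM and log2 fold changes, and the deposited p-value and adjusted p-value columns, are the authors' own, and the dispersion behind their p-values is not stated.

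Every CPM value of each library was a whole multiple of 1 step within a tolerance of 0.1 step (100% in each), and read numbers were recovered from these steps. The plan had assumed counts where they could be recovered. No count test was made, because single libraries give no spread to test against. Columns present in 2 tables held identical values, for 12954 of 12954 and 12848 of 12848 genes, so that all libraries are on 1 scale. Log2 ratios used the authors' effective library sizes with a prior count of 2, and a gene was called at 2-fold or more. Exact intervals at 95% and all other values came from scipy 1.17.1, pandas 2.3.3 and numpy 2.4.6 (Python 3.11.15), and figures from matplotlib 3.10.9. Intervals cover counting error only, because each group has 1 library. They also treat reads as independent, but reads without molecular identifiers are not independent molecules, so the intervals may be too narrow. On simulated libraries the steps returned 100% of counts exactly.

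Positions and transcript lengths are from GENCODE M21 (GRCm38), which matched 13661 of 13685 genes, and promoter windows from RefSeq (GRCm38.p6). The 9 genes and the pathway and marker lists were chosen with earlier results of these data known. Named genes are the 9, Ctnnb1, up to 4 genes per list and comparison with the largest ratio among those at least 2-fold with at least 200 reads over both libraries, and the 3 genes nearest in pattern to each of the 9. Other genes named were picked after their values were seen, among them Itgax, Malat1, Mmp8, Erg, Cd48, Cd34, Cd3g, Trac, Sox12, Kremen1, Has1, Cdkn1a and listed members given for comparison. Alternatives were prior counts of 0.5 and 5, total reads, DESeq2-type size factors computed in Python, a minimum of 100 reads, protein-coding genes alone, a 1.5-fold threshold and the deposited log2 fold changes. A planned comparison of protein sequences was not run.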

Additional observations from a re-analysis of the deposited data

How the results depend on the processing

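With 1 library per group no spread between cultures can be estimated, and leaving out a library was not possible. No paired analysis was possible because each group has 1 library. Of 141 log2 ratios of the 9 genes under the alternatives, 0 changed sign and 3 changed their side of 2-fold. All 3 were Rnf43 in CAF.CM + Wnt2 antibody against CAF.CM, with a log2 ratio of 1.01 with a prior count of 0.5, 1.03 with DESeq2-type size factors and 1.02 in the authors' deposited table, so that 1 of the 7 genes was at least 2-fold higher there in place of 0. Cd44 with CAF.CM moved to -0.25 with total reads. Over the 3 comparisons, total reads moved the median of all genes by at most 0.061 (log2) and DESeq2-type size factors by at most 0.044.

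A 1.5-fold threshold gave 968 higher and 1049 lower genes with Wnt2 (376 and 385 at 2-fold), 1838 and 2387 with CAF.CM (891 and 1158), and 575 and 1400 with the antibody (133 and 477). A minimum of 100 reads left 47 higher and 261 lower genes with the antibody, and protein-coding genes alone left 79 higher, since fewer genes enter the count. Depth limits the 2 CAF.CM libraries most: Myc, Tcf7 and Znrf3 rest there on 11 to 50 reads.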
